A study of Mus musculus with 2 samples.

Results

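The genes described here make up the Wnt pathway of dentate gyrus (DG) astrocytes from the secreted ligand to the transcription factor. They were chosen by symbol and not by level. The set takes the Wnt, R-spondin (Rspo), Frizzled (Fzd), Sfrp, Lgr, Dvl, Axin, Tcf7 and Nkd families, Frzb, the Dkk genes, Wif1, Porcn, Lrp5, Lrp6, Rnf43, Znrf3, Apc, Gsk3b, Ctnnb1 and Lef1. The gene tables of WT and β-arr1 KO astrocytes, joined by symbol, held 60 of these genes among 16302 genes in all. Of the 60 genes, 20 were grouped as ligands with the genes that act with them, 17 as receptors, 9 as secreted inhibitors and 14 as intracellular effectors. Dkk4, Rspo4, Wnt10a, Wnt3a, Wnt8a and Fzd10os, whose symbols fit the same names, were listed in neither table and so were not analysed here.

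The data are RNA sequencing of astrocytes cultured from the DG of C57BL/6 mice, with 1 library from wild type (WT) mice and 1 library from β-arr1 KO mice, which lack the signalling adaptor β-arrestin 1. The study describes 1 culture protocol, without saying whether the WT and KO cultures were grown and sequenced side by side. Genotype and culture batch therefore cannot be told apart. The adult DG was dissociated and grown in medium with serum. The culture was then shaken to detach loosely attached cells (neurons, dividing cells and precursors of oligodendrocytes). The study collected samples for RNA sequencing and qRT-PCR from several mice of each genotype, without saying whether each library pooled them. Their exact age and sex are not given in the sources used here. A serum culture of this kind is a model of the astrocyte and keeps other adherent cells. The knockout was in the whole animal, so every cell type in the culture carried it.

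Wnt proteins are lipid-modified by Porcn, leave the cell and bind a Frizzled receptor together with Lrp5 or Lrp6. In the canonical branch, Dvl then disarms a destruction complex built on Axin, Apc and Gsk3b, β-catenin (Ctnnb1) accumulates, and it activates genes together with factors of the Tcf7 and Lef1 family. R-spondins act through the Lgr receptors to hold back Rnf43 and Znrf3, which otherwise remove Frizzled from the surface, while Sfrp proteins, Frzb and Wif1 bind Wnt outside the cell and Dkk proteins act on Lrp5 and Lrp6. In the adult hippocampus, Wnt from astrocytes is known for its role in the formation of new neurons.

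The level of a gene is given in FPKM, fragments scaled for transcript length and library size, so that levels can be set side by side between genes. The ratio is the FPKM in KO over the FPKM in WT. Each genotype had 1 library, so the spread between cultures is unknown, genotype could not be tested, and each ratio describes these 2 libraries. The sequencing depth, estimated from the steps between low FPKM values, was 9520000 fragments in WT and 9800000 in KO. The 95% interval beside a ratio is the exact Clopper-Pearson interval on the estimated fragments of the gene. It covers counting error only, not the spread between cultures. A gene was counted as higher or lower in KO when its ratio lay above 3/2 or below 2/3 and either library reached 1 FPKM. Arrb1, the gene of β-arrestin 1, was at 7.62 FPKM in WT and 2.72 in KO, a ratio of 0.358 (interval 0.301 to 0.424). Transcripts from the part of the locus left in the knockout would count here, so the value is no full check of the label.

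The 2 cultures also differed in genes of other cells, which matters for secreted factors that many cells make. All 5 analysed markers of fibroblasts and meninges were lower in KO, and the whole list of 6 genes summed to 550.2 FPKM in WT and 287.2 in KO. Of these, Col1a1 was at 420.5 and 237.3 FPKM, and Dcn was at 6.11 and 0.831 FPKM. Lum, the other gene of that list, was at 0.660 FPKM in WT and listed in that table only. The choroid plexus gene Ttr was at 23.8 FPKM in WT and 0.290 in KO, and Folr1 was at 53.1 and 13.6 FPKM. The ependymal gene Foxj1 went the other way, from 14.7 FPKM in WT to 24.4 in KO. The astrocyte markers had a summed level of 299.5 FPKM in WT and 336.5 in KO, with 3 of 8 higher (Aqp4, S100b and Slc1a2), and Gfap was at 188.5 and 191.8 FPKM. Gja1 was lower by more than counting error, at 34.0 and 29.4 FPKM, though between the limits. Markers of microglia were present in both, at 234.4 and 215.1 FPKM in sum, with 0 of 6 past either limit. Among the other markers analysed, with the sum over each whole list in parentheses, 2 of 5 endothelial genes were higher and 1 was lower (44.9 and 35.6 FPKM in sum), 2 of 5 oligodendrocyte lineage genes were higher (46.7 and 57.6 FPKM), and 1 of 3 neuron genes was higher (82.8 and 105.9 FPKM). Of the markers past a limit, Dcn and Ttr entered only through their WT level. Sox10, of the oligodendrocyte lineage, entered only through its KO level, at 0.907 FPKM in WT and 1.82 in KO. Among the neuron genes, Rbfox3 was near 0 in both, at 0.0743 and 0.108 FPKM, and Snap25 and Syt1 stayed below 1 FPKM. Stmn2, at 36.6 and 43.4 FPKM, and Tubb3, at 44.7 and 59.8 FPKM, made up most of the neuron sum. Genes of the Y chromosome were listed in KO only (4 genes, 8.44 FPKM in sum), so genotype and the sex of the cultures cannot be told apart. Fewer cells of a type and less RNA per cell cannot be told apart in such bulk samples.

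The bases just upstream of annotated starts are shown for 3 of the genes whose KO level lay above the upper limit, to place the starts of their annotated transcripts beside the loci and levels given below. Rnf43 and Lgr6 had the highest ratios among the genes analysed, and Wnt5b has several annotated starts along a span that holds another gene. The sequences are those of RefSeq (GRCm38.p6 table), 250 bases 5′ to 3′ on the strand of the gene and ending at the base before the start. Each matched the NCBIM37 (mm9) genome, the build of the deposited loci, at 1 place, and the coordinates are those of NCBIM37. None of the 4 windows overlapped an exon of a coding transcript in GENCODE, although the Rnf43 window lies within an exon of a noncoding one. They were picked from 11 windows of 7 genes past a limit. Windows of Dvl3, Tcf7, Wif1 and Wnt7a, which are not shown, did overlap exons of coding transcripts. A further window each of Rnf43 and Wnt5b is also not shown. Capitals mark CTTTGAT or CTTTGAA, the letters by which sites of the Tcf7 and Lef1 family are commonly known, searched on both strands.
Rnf43, chr11:87476339-87476588, plus strand: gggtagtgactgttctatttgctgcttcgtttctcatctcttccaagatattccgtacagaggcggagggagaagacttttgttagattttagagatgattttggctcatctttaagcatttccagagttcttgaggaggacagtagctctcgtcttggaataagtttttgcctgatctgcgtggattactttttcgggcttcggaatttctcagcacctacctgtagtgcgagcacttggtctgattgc
Lgr6, chr1:137001854-137002103, minus strand: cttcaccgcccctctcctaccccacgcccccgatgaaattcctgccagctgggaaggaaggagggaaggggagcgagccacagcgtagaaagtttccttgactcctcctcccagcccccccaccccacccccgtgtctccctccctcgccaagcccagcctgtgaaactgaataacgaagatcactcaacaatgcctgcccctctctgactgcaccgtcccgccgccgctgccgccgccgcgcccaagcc
Wnt5b, chr6:119494366-119494615, minus strand: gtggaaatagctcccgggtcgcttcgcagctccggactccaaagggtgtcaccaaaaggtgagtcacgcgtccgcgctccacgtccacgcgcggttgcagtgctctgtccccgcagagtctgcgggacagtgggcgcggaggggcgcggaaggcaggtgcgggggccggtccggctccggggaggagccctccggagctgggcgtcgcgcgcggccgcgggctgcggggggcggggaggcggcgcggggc
Wnt5b, chr6:119399405-119399654, minus strand: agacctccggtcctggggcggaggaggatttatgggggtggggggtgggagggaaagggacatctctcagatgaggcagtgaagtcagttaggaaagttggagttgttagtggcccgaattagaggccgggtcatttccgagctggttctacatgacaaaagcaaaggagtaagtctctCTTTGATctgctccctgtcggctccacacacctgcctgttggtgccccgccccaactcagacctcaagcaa

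The Lgr6 window ends at the base next to the deposited locus. The far Wnt5b window lies next to the Wnt5b locus in KO, which ends at 119494365. In WT that locus ends at 119494608, so most of the window lies inside it. The near Wnt5b start, inside the locus, was the one with a match, which began 71 bases upstream. Of all 32851 RefSeq windows of this length, 7.48% held one of the motifs. Of the 52 windows of the Wnt pathway genes, 3 did, 1 each for Wnt5b, Wnt11 and Dkk1. A match describes letters and is no evidence of a bound site, and a window without one says nothing about the factor.

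Over the whole set, the summed level of the pathway was 664.7 FPKM in WT and 681.5 in KO, and single genes at several steps stood apart. Of the 60 genes, 56 were listed in both tables and 44 reached 1 FPKM in one library or both. Of these 44 genes, 7 were higher in KO (Rnf43, Lgr6, Rspo2, Tcf7, Wnt7a, Wnt5b and Dvl3) and 2 were lower (Wif1 and Rspo3). Among all 12646 genes analysed, 9.56% were higher, 8.28% were lower and 17.8% were one or the other. The median log2 ratio was 0.03 over the 44 genes and 0.02 over all genes. The 7 genes are 15.9% of the 44 and the 2 genes are 4.55%. Wnt7a, Lgr6, Rnf43 and Fzd10 entered only through their KO level, with less than 1 FPKM in WT, so they had to have a ratio above 1. When 1 FPKM was required in both libraries, 4 of 40 genes were higher and 2 were lower, against 6.45% and 5.35% of all genes. The 44 genes were all listed in both tables, and among the 12171 analysed genes so listed 14.6% lay past one of the limits.

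**Figure D1:**
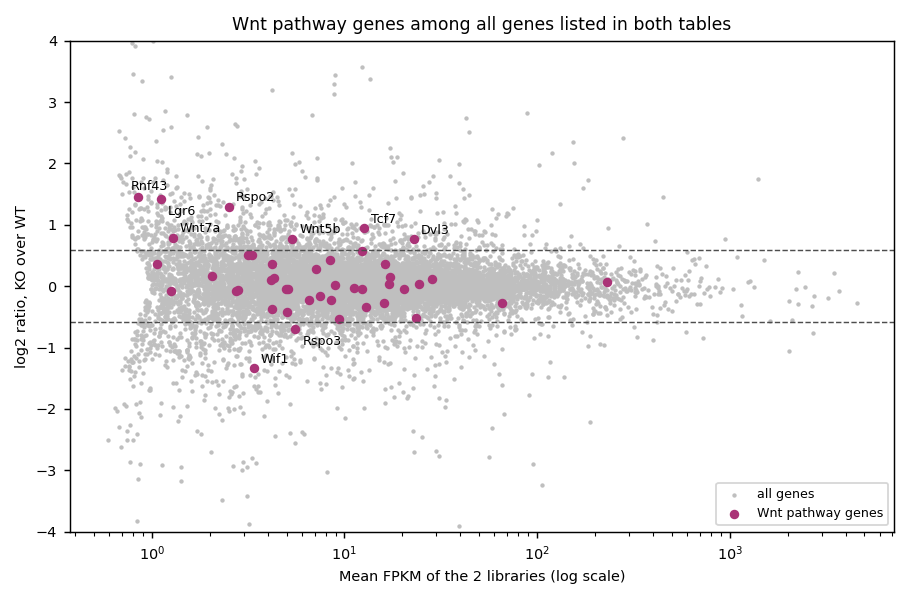
Log2 of the KO over WT ratio of FPKM (vertical axis) against the mean FPKM of the 2 libraries (horizontal log axis) for genes listed in both tables that reached 1 FPKM in either library. Grey points are all genes, purple points are the Wnt pathway genes, the dashed lines are the limits 3/2 and 2/3, and 21 genes fall outside the plotted range. The 7 genes named above the upper line and the 2 named below the lower line are the ones past a limit, and the other purple points lie between the lines.

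The interval left out a ratio of 1 in 23 of the 44 genes, 15 of them with a ratio above 1 and 8 below, and in 40.9% of the 11841 genes with such an interval. All 9 genes past a limit were among the 23 genes, but Lgr6, Rnf43 and Wnt7a were not when fragments were counted over the shortest annotated transcript in place of the longest. The other 14 genes had smaller ratios that the depth could still tell from 1 in these libraries, counted over the longest transcript. Over the shortest, the interval left out 1 in 15 of the 44 genes, 6 of them past a limit. Axin2, at a ratio of 1.49, lay closest to the upper limit from below, and Fzd2, at 0.691, lay closest to the lower limit from above.

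Among the ligands, Wnt5a dominated in both libraries, and Rspo2 had the highest ratio of those that reached 1 FPKM. Wnt5a, a ligand best known for signalling apart from β-catenin, was at 24.2 FPKM in WT and 24.7 in KO, a ratio of 1.02 (interval 0.951 to 1.09). It made up 50.4% of the summed FPKM of the Wnt genes in WT and 44.8% in KO. The sum of the 16 Wnt genes listed was 48.0 FPKM in WT and 55.1 in KO. Wnt2b, a ligand of the canonical branch, was the next Wnt gene by level, with 7.17 FPKM in WT and 9.65 in KO. Its interval of 1.13 to 1.60 left out 1. Wnt2 was at 4.76 and 3.67 FPKM, Wnt9a at 3.66 and 4.72 FPKM, and Wnt4 at 1.29 and 1.23 FPKM. Of these, the interval left out 1 for Wnt9a only, with a lower bound of 1.0005. Porcn, the enzyme that attaches the lipid to Wnt proteins, was at 5.15 FPKM in WT and 5.02 in KO.

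Rspo2 and Rspo3, which both enhance Wnt signalling through the Lgr receptors, differed in opposite directions. Rspo2 (chr15:42852341-43002367, minus strand, mm9) was at 1.45 FPKM in WT and 3.57 in KO, from about 44 and 110 fragments. The ratio was 2.45 (interval 1.71 to 3.56). Rspo3 (chr10:29172913-29255673, minus strand) was at 6.87 FPKM in WT and 4.26 in KO, from about 146 and 93 fragments. The ratio was 0.619 (interval 0.472 to 0.809). As a result, Rspo3 was 4.73 times the level of Rspo2 in WT and 1.19 times in KO, whereas the sum of the 3 listed Rspo genes was 8.52 FPKM in WT and 7.88 in KO. The level of Rspo3 moved with the fibroblast and choroid plexus markers given above, and their part in it was not tested.

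Wnt5b and Wnt7a were the 2 Wnt genes past the upper limit. Wnt5b, the closest relative of Wnt5a, was at 3.95 FPKM in WT and 6.75 in KO, from about 82 and 143 fragments. The ratio was 1.71 (interval 1.29 to 2.27), and Wnt5a exceeded it 6.13 times in WT and 3.66 times in KO. The Wnt5b locus (chr6:119382549-119494608 in WT) spans the gene Fbxl14, which was at 8.67 FPKM in WT and 8.97 in KO. The Wnt5b value holds only if the reads were divided correctly between the 2 genes, which was not tested. The sum of their FPKM gave a ratio of 1.25. Adding Fbxl14, whose own ratio was 1.03, lowers the ratio however the reads were divided, so the sum cannot show it. Wnt7a (chr6:91313977-91361363, minus strand), a ligand known for its role in synapses and vessels of the brain, was at 0.941 FPKM in WT and 1.63 in KO. With about 27 and 48 fragments, its ratio was 1.73 (interval 1.06 to 2.88).

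The other 10 listed ligands did not reach 1 FPKM in either library. Wnt11, Wnt10b and Wnt7b were the highest of them, with 0.560 and 0.837 FPKM, 0.408 and 0.842 FPKM, and 0.425 and 0.798 FPKM in WT and KO. All 3 had the higher value in KO, but each interval included 1. Wnt16 was at 0.280 and 0.0681 FPKM, Wnt6 at 0.221 and 0.0537 FPKM, Rspo1 at 0.189 and 0.0612 FPKM, and Wnt1 at 0.0476 and 0.185 FPKM, each from 9 fragments or fewer. Wnt3 and Wnt8b were listed in WT only and Wnt9b in KO only, each at the level of about 1 fragment. These genes were too low for a ratio to be read at this depth.

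**Figure D2:**
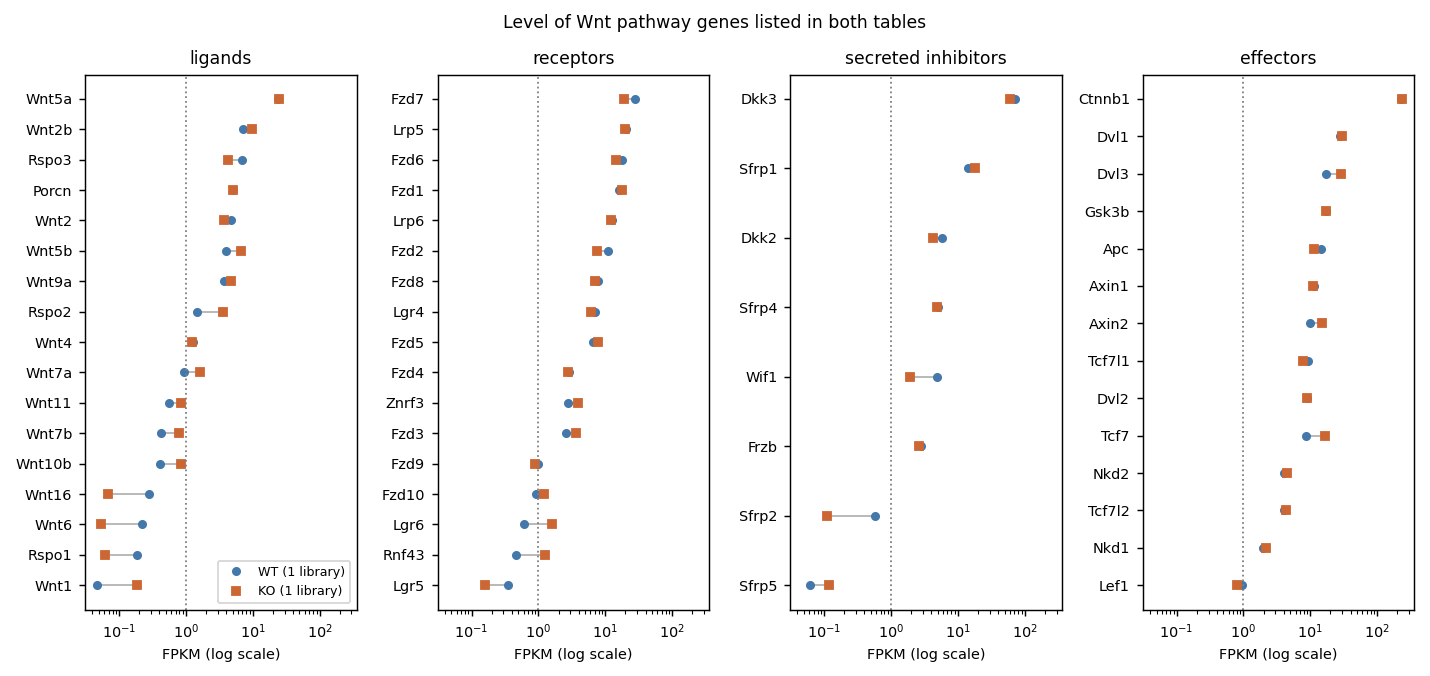
FPKM (horizontal log axis) in WT (blue circles) and KO (orange squares), 1 library each, for the genes listed in both tables, in panels for ligands, receptors, secreted inhibitors and effectors, sorted by the WT level. The dotted line is 1 FPKM. The 2 symbols of most genes above the line nearly coincide, and the wider gaps above it include those of Rspo2, Wnt5b, Wif1, Tcf7 and Dvl3.

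The receptors were led by Fzd7 and Lrp5, and no Frizzled gene lay past a limit. The 10 Fzd genes summed to 94.4 FPKM in WT and 83.0 in KO, and Fzd7, Fzd6 and Fzd1 together made up 65.2% and 62.5% of the sum. Fzd7 was at 27.7 FPKM in WT and 19.2 in KO (ratio 0.694, interval 0.636 to 0.758), and Fzd2 was at 11.1 and 7.64 FPKM (ratio 0.691, interval 0.587 to 0.812). Fzd6 was at 17.6 and 14.6 FPKM (ratio 0.831, interval 0.741 to 0.932). These 3 genes were lower in KO by more than counting error, in the direction of the fibroblast markers, whose part in it was not tested. Fzd5 was at 6.47 FPKM in WT and 7.83 in KO (interval 1.06 to 1.38), and Fzd3 was at 2.60 and 3.69 FPKM (interval 1.09 to 1.85). Both were higher in KO by more than counting error, with fragments counted over the longest transcript. Fzd1 was at 16.3 and 18.1 FPKM, Fzd8 at 7.92 and 7.09 FPKM, Fzd4 at 2.87 and 2.74 FPKM, and Fzd10 at 0.930 and 1.19 FPKM, with intervals that included 1. Fzd9 stayed below 1 FPKM, at 0.973 and 0.893 FPKM.

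The coreceptors of the canonical branch had nearly equal levels. Lrp5 was at 20.6 FPKM in WT and 20.1 in KO (ratio 0.974, interval 0.890 to 1.06). Lrp6 was at 12.5 and 12.1 FPKM (ratio 0.969, interval 0.891 to 1.05). Counting error alone thus allowed ratios from 0.890 to 1.06 for the pair.

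The genes of the R-spondin module held the 2 highest ratios among the 44 genes, both at low levels and both of genes that entered only through KO. Lgr6, a receptor of R-spondins, lies at chr1:136882930-137001853 on the minus strand. It was at 0.607 FPKM in WT and 1.62 in KO, a ratio of 2.68 (interval 1.58 to 4.71) from about 20 and 55 fragments. Rnf43, a ubiquitin ligase that removes Frizzled from the membrane, lies at chr11:87476589-87549041 on the plus strand. It was at 0.455 FPKM in WT and 1.24 in KO, a ratio of 2.72 (interval 1.56 to 4.96) from about 18 and 50 fragments. Znrf3, the related ligase, was the more abundant of the pair in both libraries, at 2.73 FPKM in WT and 3.87 in KO. Its ratio of 1.42 (interval 1.15 to 1.74) lay below the upper limit. Lgr4, the main Lgr receptor here, was at 7.05 and 6.01 FPKM (interval 0.726 to 1.003), and Lgr5 was at 0.346 and 0.157 FPKM from 15 and 7 fragments. The 3 Lgr genes therefore summed to 8.002 FPKM in WT and 7.80 in KO, and the higher level of Lgr6 did not raise the sum.

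**Figure D3:**
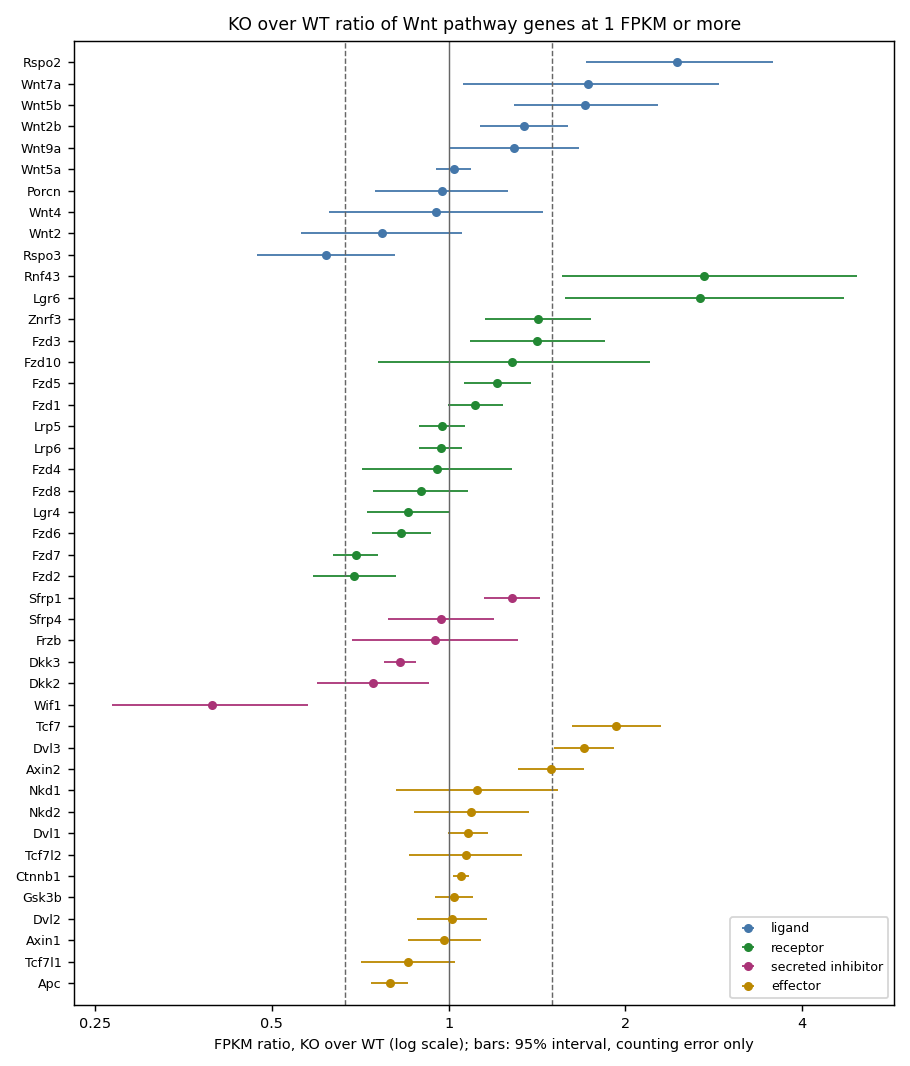
KO over WT ratio of FPKM (horizontal log axis) for the 44 genes that reached 1 FPKM in either library, coloured and grouped by role. Bars are the 95% interval for counting error only, the solid line is a ratio of 1 and the dashed lines are 2/3 and 3/2. Rnf43 and Lgr6 lie farthest right with wide bars, Wif1 farthest left, and the bar of Ctnnb1 is the narrowest.

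The secreted inhibitors were the group with the lowest median log2 ratio, -0.18 over 6 genes, and their summed level was 105.3 FPKM in WT and 91.8 in KO. Wif1, which binds Wnt proteins outside the cell, was the only one past a limit. It was at 4.85 FPKM in WT and 1.92 in KO, from about 98 and 40 fragments. The ratio was 0.396 (interval 0.267 to 0.577), the lowest among the 44 genes, and the locus (chr10:120471060-120537698, plus strand) had the same bounds in both tables. Dkk3 was by far the most abundant inhibitor, with 71.9 FPKM in WT and 59.4 in KO (ratio 0.826, interval 0.776 to 0.880). It made up 92.6% of the summed Dkk level in WT and 93.2% in KO, although it acts less clearly on Lrp5 and Lrp6 than its relatives. Dkk2, which binds Lrp6, was at 5.76 and 4.29 FPKM (ratio 0.744, interval 0.596 to 0.926).

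Sfrp1 was the 1 inhibitor that was higher in KO by more than counting error, at 14.3 FPKM in WT and 18.3 in KO (ratio 1.28, interval 1.15 to 1.43). Sfrp4 was at 5.04 and 4.89 FPKM, and Frzb, which is of the same family, was at 2.81 and 2.67 FPKM. Their intervals included 1. Sfrp2 did not reach the minimum but had 0.572 FPKM in WT and 0.111 in KO, from about 10 and 2 fragments (ratio 0.194, interval 0.0207 to 0.912). Sfrp5 was at 0.0606 and 0.118 FPKM, and Dkk1 was listed in KO only, at about 1 fragment. Wif1, Dkk2, Dkk3 and Sfrp2 were lower in KO along with the fibroblast, meningeal and choroid plexus markers, whereas the intervals of Sfrp4 and Frzb included 1 and Sfrp1 lay higher. The part of those cells was not tested.

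Among the effectors, Dvl3 and Tcf7 were higher in KO, and β-catenin, Gsk3b and Axin1 had ratios near 1. Ctnnb1 was the highest gene of the set, with 224.4 FPKM in WT and 235.3 in KO. Its ratio of 1.05 (interval 1.02 to 1.08) rests on about 7375 and 7962 fragments. Gsk3b, the kinase of the complex, was at 16.9 and 17.3 FPKM (interval 0.946 to 1.10), and its scaffold Axin1 was at 11.3 and 11.1 FPKM (interval 0.851 to 1.13). Apc, another scaffold, was at 14.4 FPKM in WT and 11.4 in KO (ratio 0.794, interval 0.738 to 0.853).

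Dvl3 was the only one of the 3 Dvl genes past a limit. Dvl proteins carry the signal from the Frizzled receptor to the destruction complex. Dvl3 (chr16:20517084-20534071 in WT, plus strand) was at 17.0 FPKM in WT and 28.9 in KO, from about 448 and 783 fragments. The ratio was 1.70 (interval 1.51 to 1.91), the most precise of the 9 ratios past a limit. Dvl1, whose locus overlaps that of Gltpd1 in WT, was at 27.4 and 29.6 FPKM (interval 0.997 to 1.17) and Dvl2 at 8.91 and 9.03 FPKM (interval 0.884 to 1.16). Dvl3 thus made up 31.9% of the summed Dvl level in WT and 42.8% in KO, and the sum was 53.4 and 67.5 FPKM. The locus of Dvl3 began at 20517137 in KO, so the transcript models behind its 2 values were not the same.

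Tcf7 was the only transcription factor of its family past a limit. Tcf7 (chr11:52065818-52096869 in WT, minus strand) was at 8.63 FPKM in WT and 16.7 in KO, from about 195 and 387 fragments. The ratio was 1.93 (interval 1.62 to 2.30). Tcf7l1, often a repressor, was at 9.18 and 7.83 FPKM, and Tcf7l2 was at 4.004 and 4.28 FPKM, with intervals of 0.708 to 1.03 and 0.856 to 1.34. Lef1 was at 0.962 and 0.802 FPKM, below the minimum in both. Tcf7 took 37.9% of the summed level of the 4 genes in WT and 56.3% in KO, so that the leading gene was Tcf7l1 in WT and Tcf7 in KO. The Tcf7 locus in KO ran from 52065801 to 52096658 and so differed at both ends from that in WT.

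Axin2 and the Nkd genes are feedback inhibitors that the pathway itself is known to switch on. Axin2 was at 9.94 FPKM in WT and 14.8 in KO, a ratio of 1.49 (interval 1.31 to 1.70) just under the upper limit, from about 387 and 595 fragments. Its locus began at 108779244 in WT and at 108781663 in KO. Nkd1 was at 1.95 and 2.17 FPKM and Nkd2 at 4.10 and 4.48 FPKM, with intervals that included 1.

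The other genes of the pathway were described from 3 lists, chosen with earlier results of these data known. Their counts stand beside 9.56% higher and 8.28% lower among all genes. Of the 12 analysed genes for secretion and extracellular control, 2 were higher and 3 were lower, with a median log2 ratio of -0.12. Notum, an enzyme that removes the lipid from Wnt and so inactivates it, was at 7.06 FPKM in WT and 17.3 in KO (ratio 2.45, interval 2.01 to 3.01). Ndp, a Frizzled ligand that is no Wnt, was at 1.67 and 2.61 FPKM (ratio 1.56), with an interval that included 1. Igfbp4 was at 99.5 and 32.4 FPKM, Gpc3 at 4.56 and 1.17 FPKM, and Cthrc1 at 84.1 and 50.8 FPKM. The genes of these 3 secreted or surface proteins were lower in KO along with the fibroblast and choroid plexus markers, whose part in it was not tested. Wls, which carries Wnt proteins to the cell surface, was at 223.4 FPKM in WT and 181.7 in KO (ratio 0.814, interval 0.785 to 0.843).

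Of the 19 analysed genes of alternative Wnt receptors and planar polarity, 3 were higher and 2 were lower, with a median log2 ratio of 0.05. The polarity genes Celsr1 (1.18 and 2.12 FPKM) and Prickle3 (2.34 and 5.38 FPKM) and the formin Daam2 (8.52 and 14.7 FPKM) were higher in KO. Ror2, a receptor of Wnt5a, was at 1.91 FPKM in WT and 1.23 in KO, and Dact1 was at 1.05 and 0.578 FPKM. For both of these low genes the ratio was under 2/3. Dact1 reached 1 FPKM in WT only, so its ratio had to lie below 1. Ryk and Ptk7, the most abundant Wnt coreceptors of this list, were at 37.3 and 34.2 FPKM and at 33.6 and 29.1 FPKM, between the limits.

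Of the 27 analysed genes of the destruction complex and the nuclear cofactors, 2 counted as higher and 2 as lower, with a median log2 ratio of 0.04. Of these 4 genes, only Btrc, which marks β-catenin for degradation, was listed in both tables, at 13.9 FPKM in WT and 6.30 in KO (ratio 0.454). Gsk3a and Chd8 were listed in KO only, at 77.4 and 13.9 FPKM, and Tle2 in WT only, at 4.96 FPKM. In each case the other table listed a different gene over the same locus, so no ratio was given. Casein kinase 1 alpha (Csnk1a1), which primes β-catenin for Gsk3b, was at 128.5 and 141.3 FPKM.

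Genes known as targets of Wnt and β-catenin in other tissues formed a last list of 18 genes, of which 8 belong to the pathway set itself. Of the 11 target genes analysed, 3 were higher (Tcf7, Rnf43 and Notum) and 1 was lower (Wisp1), against 9.56% and 8.28% of all genes. Their median log2 ratio was 0.43 against 0.02 over all genes, and Rnf43 entered only through its KO level. Tcf7 and Rnf43 are also counted in the pathway set and Notum in the secretion list, so this count is not separate from those. The target list was chosen with earlier results of these data known. Axin2 and Znrf3 had ratios of 1.49 and 1.42 under the limit. Ccnd1, a cyclin of the G1 phase, was at 541.0 FPKM in WT and 726.9 in KO (ratio 1.34, interval 1.32 to 1.37). Myc, a driver of growth, was at 16.3 and 13.6 FPKM, between the limits. Wisp1, a secreted matrix protein, was at 23.6 and 14.3 FPKM (ratio 0.607). Lgr5, Lef1, Sp5 and Sox17 stayed below 1 FPKM in both libraries. The level of Wisp1 moved with the fibroblast markers. The astrocyte markers, of which 3 of 8 were higher and Gfap and Gja1 were not, had a median log2 ratio of 0.34. The part of either cell type was not tested.

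**Figure D4:**
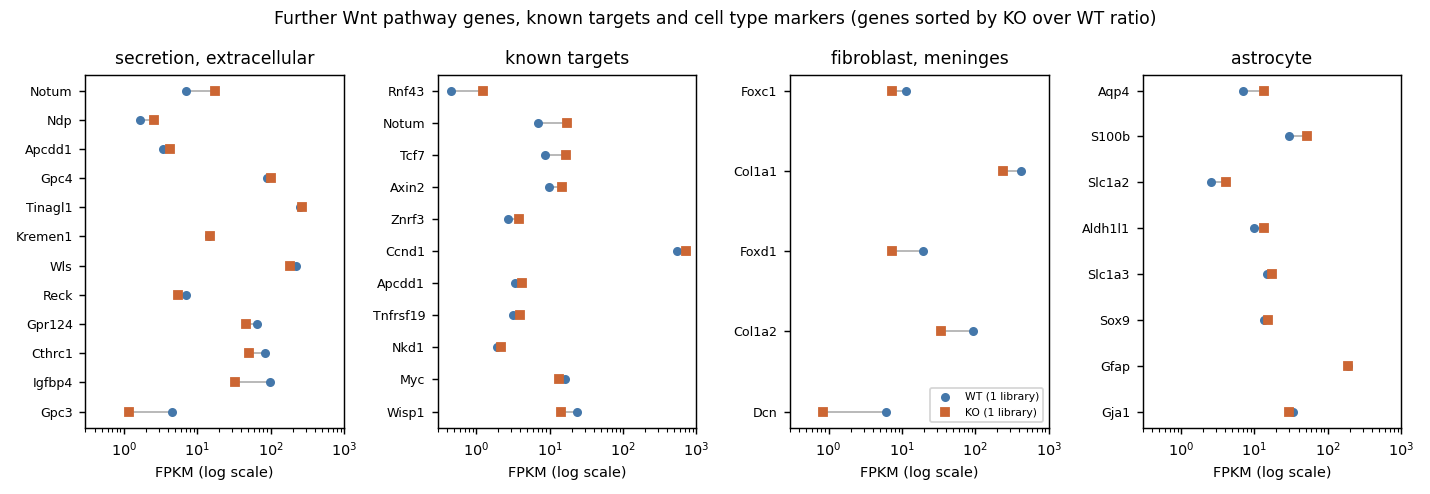
FPKM (horizontal log axis) in WT (blue circles) and KO (orange squares), 1 library each, for genes listed in both tables that reached 1 FPKM in either library, in panels for secretion and extracellular control, known targets, fibroblast and meningeal markers, and astrocyte markers, sorted by ratio. All 5 fibroblast and meningeal genes lie lower in KO, and Igfbp4 and Gpc3 show gaps in the same direction, while Notum, Rnf43 and Tcf7 lie higher in KO.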

How the data were processed

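RNA from WT and β-arr1 KO DG astrocyte cultures was sequenced as 1 library each, and the genotype was taken from the labels. The authors aligned paired reads to mm9 with TopHat (1.4.0 in the submitters' processing notes) and estimated expression with Cufflinks, whose version is not given in the sources used here. The authors deposited FPKM values, which are scaled for transcript length and library size, in tables that list values above 0 only. Whether counting used strand is not given in the sources used here.

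The tables were joined by symbol (15362 symbols in WT, 15388 in KO), with the highest value kept for a repeated symbol and 0 for a symbol listed in one table only. The locus starts count from 1 after 1 was added. Ratios were taken without a pseudocount for genes that reached 1 FPKM in either library. The limits 3/2 and 2/3 are those of the study. Genes above the minimum that only one table listed were counted past a limit, without a ratio.

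Cufflinks gives no counts here. Depth was estimated from genes with 1 GENCODE transcript and under 0.15 FPKM, 416 in WT and 435 in KO, of which 69.2% and 69.7% lay within 5% of a whole step of 1 to 3 fragments. Fragments per gene used the longest transcript, and the 95% Clopper-Pearson interval on the KO share was centred on the FPKM ratio. The floor of a gene was 3 fragments. The estimator was tested on simulated data.

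Every pathway gene is accounted for: genes at 1 FPKM or more are named with both values, the others with their levels. The genes and lists were chosen with earlier results of these data known. Upstream sequences (RefSeq) were found for 42 of the 60 genes and for 7 of the 9 past a limit. Minimum level, pseudocount, scaling, limits, locus bounds, repeated symbols and transcript length were varied. Python 3.11.15, numpy 2.4.6, pandas 2.3.3 and scipy 1.17.1 were used.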

Additional observations from a re-analysis of the deposited data

How the results depend on the processing

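Rescaling the libraries to the same median, upper quartile or total (factors of 1.013, 1.018 and 0.997), a pseudocount of 0.1 FPKM and summing repeated symbols left the counts at 7 genes higher and 2 lower, and the median log2 ratio was 0.003 to 0.034 across the rescalings and pseudocounts. Under the settings that left the counts unchanged, 9.04% to 9.69% of all genes were higher and 8.07% to 8.72% lower. A minimum of 0.1 FPKM gave 11 higher and 7 lower of 56 genes, with 10 ligands and 3 secreted inhibitors past a limit. At that minimum, 13.6% of all genes were higher and 12.4% lower. A minimum of 5 FPKM gave 3 higher and 1 lower of 28 genes, with 2 ligands, 0 receptors and 0 inhibitors. The shares of all genes were 6.81% and 5.74%. With 1 FPKM in both libraries 4 of 40 genes were higher, against 6.45% of all genes, and 0 receptors lay past a limit. A pseudocount of 1 FPKM left 1 gene lower and 2 ligands, since Rspo3 (0.668) and Wnt7a (1.35) came to lie between the limits. It gave Rnf43 a log2 ratio of 0.62, and 6.93% of all genes were higher and 6.10% lower. Limits of 2 and 1/2 gave 3 of 44 genes higher, 1 lower, 1 ligand and 0 effectors, against 4.78% and 4.42% of all genes. Only genes with the same locus bounds in both tables gave 3 of 28 higher, against 7.51% of all such genes. Among them 2 ligands and 0 effectors lay past a limit, since Dvl3, Tcf7, Wnt5b and Rspo2 had different bounds. With the shortest transcript in place of the longest, intervals left out 1 in 15 genes instead of 23, including 6 of the 9 past a limit, without Lgr6, Rnf43 and Wnt7a. Of 220 single-gene values, none of a gene past a limit changed direction, and among the others only Dvl2 did, with a log2 ratio of 0.02 as reported and -0.0059 after rescaling to the same upper quartile. Adding Fbxl14 to Wnt5b, chosen after seeing the data, gave a log2 ratio of 0.32.

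No paired analysis was possible because there is 1 library per genotype. The spread between cultures is unknown, and the lowest genes past a limit, Lgr6 and Rnf43, rest on about 20 and 18 fragments in WT.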
